A study of Mus musculus with 8 samples.

Results

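The 10 genes described here encode receptor chains for interleukins and colony-stimulating factors: Il4ra, Il13ra1, Il2rg, Il15ra, Il21r, Il17ra, Il1rap, Csf1r, Csf2ra and Csf2rb. They were taken from a fixed list of receptor names, out of 30284 genes with a value. That list was chosen with earlier results of these data known. A gene was tested when it reached 1 TPM in at least 2 libraries, which 13009 genes did, and all 10 receptor genes were among them. TPM is a transcript abundance corrected for transcript length and scaled to the same sum in every library, so levels of different genes can be set side by side.

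The study sequenced total RNA, per the labels, in 8 macrophage libraries from 7-week-old male C57BL6 mice that were stimulated in the peritoneal cavity, with 2 libraries in each of 4 groups. The LPS+IFNb group received IFNb (interferon beta, which acts through the type I interferon receptor) for 4 h and then LPS (lipopolysaccharide, the TLR4 ligand of bacterial outer membranes) for 4 h. The LPS group received LPS for 4 h, the IFNb group IFNb for 4 h and the Saline group saline for 4 h. The labels name no mutation in any group and give IFNb before LPS in the combined one. The combined libraries were therefore taken later after IFNb than the IFNb libraries, and no group received IFNb followed by saline. Nothing in the labels says if paired libraries are different mice, or pools, so the spread behind each p-value is that of these libraries and could be technical.

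Most of these receptors work as pairs or trios of chains. The common gamma chain, encoded by Il2rg, completes the receptors for IL-2, IL-4, IL-7, IL-9, IL-15 and IL-21 and signals through JAK3 and STAT proteins. IL-4 receptor alpha pairs either with the gamma chain or with IL-13 receptor alpha 1, and through STAT6 it drives the alternative activation programme of macrophages. IL-15 receptor alpha holds IL-15 on the surface of macrophages and dendritic cells and presents it to neighbouring lymphocytes. The CSF-1 receptor is a tyrosine kinase that macrophages need for survival, and the GM-CSF receptor combines an alpha chain with the common beta chain.

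Promoter windows are shown where a searched motif was found within the excerpt, whatever the size of the gene's change. Of the 10 genes, 7 matched an entry of the RefSeq promoter table on GRCm38.p6, with 8 windows of 250 bases before and 50 bases after a start site. The excerpts below run from 60 bases before the start to 40 bases after it, 5′ to 3′ on the gene's strand, with the match in capitals.
Il15ra, second start, chr2:11705652-11705751, plus strand: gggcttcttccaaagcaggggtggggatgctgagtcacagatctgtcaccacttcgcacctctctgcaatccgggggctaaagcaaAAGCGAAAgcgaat
Il1rap, chr16:26581645-26581744, plus strand: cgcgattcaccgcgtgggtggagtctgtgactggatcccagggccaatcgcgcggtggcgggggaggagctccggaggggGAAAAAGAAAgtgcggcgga
Il2rg, chrX:101268216-101268315, minus strand: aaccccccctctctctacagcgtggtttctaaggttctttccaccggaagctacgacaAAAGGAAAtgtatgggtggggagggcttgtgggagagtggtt
Il4ra, chr7:125552211-125552310, plus strand: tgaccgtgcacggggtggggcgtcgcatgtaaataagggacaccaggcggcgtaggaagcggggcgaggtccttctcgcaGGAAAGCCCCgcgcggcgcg

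Both strands of every window were searched for 4 motifs, and matches may overlap. The interferon-stimulated response element (ISRE), GAAANNGAAA, was present in 3.44% of the 32851 windows of the table and in Il1rap, where its first base lay at position 21 counted from the start site. A shorter motif of interferon regulatory factors, AANNGAAA, was added after the windows had been seen; it was present in 23.9% of windows, and in Il15ra (position 27 of the second start), Il1rap (within the ISRE match) and Il2rg (position -2). A further match of this shorter motif lay on the opposite strand at position -187 of the first Il15ra start. The NF-kB consensus was present in 6.93% of windows and in Il4ra, on the opposite strand at position 21. The interferon-gamma-activated sequence, TTCNNNGAA, was present in 8.3% of windows and in none of the 8 windows of the receptor genes. The windows of Il13ra1, Il21r and Csf2ra held none of the 4 motifs. Of these, Il13ra1 and Il21r were called higher in IFNb against Saline (2.65 and 2.13) and Csf2ra was not called (-0.13). Of the genes with a match, Il15ra, Il2rg and Il1rap were called higher (4.86, 0.82 and 0.67) and Il4ra was not called (0.24). These matches are letters in a sequence and are not evidence of binding, and a link between motifs and changes was not tested.

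The libraries of a group resembled each other more than those of other groups, with a Pearson r of log2(TPM + 1) across genes of 0.971 to 0.983 within groups and 0.823 to 0.951 between groups. All 8 fixed macrophage markers were above 0 in every library, with a summed level of 14506 to 14899 TPM in LPS+IFNb, 17886 to 18356 TPM in LPS, 16033 to 16283 TPM in IFNb and 18932 to 21621 TPM in Saline libraries. The 6 markers of large peritoneal macrophages were low, at a sum of 29.3 to 52.7 TPM over all libraries. Markers of other cells were present at lower levels, and in several lists 1 gene carried much of the sum. The 6 monocyte markers summed to 770 to 800.2 TPM in LPS+IFNb, 592 to 953 TPM in LPS, 1051 to 1103 TPM in IFNb and 226 to 626 TPM in Saline libraries; without Fn1, at 139 to 791 TPM over all libraries, the sums were 580.2 to 631 TPM in LPS+IFNb, 150.4 to 162 TPM in LPS, 711 to 835 TPM in IFNb and 73.3 to 81.1 TPM in Saline libraries. Their members went opposite ways: 3 were called higher and 1 lower in LPS against Saline, and Ccr2 was at 4.15 to 5.45 TPM in LPS and 31.5 to 34.1 TPM in Saline libraries. The 7 B cell markers summed to 89.4 to 102 TPM in LPS+IFNb, 86.1 to 96.7 TPM in LPS, 109 to 113 TPM in IFNb and 142 to 161 TPM in Saline libraries. The 6 dendritic cell markers summed to 20.0 to 24.1 TPM in LPS+IFNb, 13.0002 to 13.2539 TPM in LPS, 14.8 to 18.2 TPM in IFNb and 9.79 to 11.97 TPM in Saline libraries, in the same order of groups as Il15ra; without Ccr7, the groups that received a stimulus overlapped each other, at 6.44 to 11.6 TPM, above Saline libraries at 4.36 to 4.97 TPM. The 5 eosinophil markers summed to 6.36 to 6.73 TPM in LPS+IFNb, 8.61 to 8.86 TPM in LPS, 9.95 to 10.8 TPM in IFNb and 15.6 to 18.5 TPM in Saline libraries. Among the 6 NK cell markers Gzma was at 6.90 to 9.87 TPM in LPS+IFNb, 1.65 to 1.87 TPM in LPS, 6.88 to 8.18 TPM in IFNb and 1.57 to 1.58 TPM in Saline libraries, while the other 5 summed to 2.08 to 4.65 TPM over all libraries. The 7 neutrophil markers summed to 140 to 219 TPM in LPS+IFNb, 191 to 284 TPM in LPS, 153 to 230 TPM in IFNb and 211 to 278 TPM in Saline libraries. Up to 3 of them were at 0 in a library. Over all libraries the 7 T cell markers summed to 11.1 to 26.4 TPM and the 6 mast cell markers to 42.3 to 70.5 TPM. Replicates of a group differed in the sum of the 5 mesothelial markers. It was 8.26 and 2.87 TPM in LPS+IFNb, 3.55 and 10.1 TPM in LPS, 10.7 and 3.73 TPM in IFNb and 5.80 and 12.2 TPM in Saline libraries. The part of such cells in the receptor levels was not tested, and in bulk RNA fewer cells of a type and less RNA per cell cannot be told apart.

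A gene was called changed at a Benjamini-Hochberg adjusted p under 0.05 over all 13009 genes in limma, and differences are on the log2(TPM + 1) scale with their standard error. Of the 10 receptor genes, 8 were called in LPS+IFNb against Saline (7 higher, 1 lower), where 69.4% of all genes were called, 15.2% as higher and 54.1% as lower. In LPS against Saline 8 were called (6 higher, 2 lower), against 54.1% of all genes (12.8% higher, 41.3% lower). In IFNb against Saline 7 were called (5 higher, 2 lower), against 51.6% of all genes (13% higher, 38.6% lower). The median difference of the 10 genes was 1.21, 0.73 and 0.46 in these comparisons, and that of all genes tested was -0.62, -0.38 and -0.37. With 10 genes, a called share of 80%, 80% and 70% is read against these backgrounds and is not itself a result. Most of the called receptor genes were higher and most of the called genes overall were lower.

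That balance of directions over all genes depended on the scaling. TPM is relative to the rest of the library, and scaling by the median ratio between libraries raised the median of all genes by 0.61 in LPS+IFNb against Saline, by 0.39 in LPS against Saline and by 0.34 in IFNb against Saline. Under that scaling 3460 genes were called higher and 3234 lower in LPS+IFNb against Saline, in place of 1980 higher and 7042 lower with the deposited values. The corresponding counts were 2601 higher and 2167 lower, in place of 1664 and 5368, in LPS against Saline, and 2321 higher and 1830 lower, in place of 1697 and 5020, in IFNb against Saline. The receptor genes then counted 9 higher and 1 lower in LPS+IFNb against Saline, 7 higher and 0 lower in LPS against Saline, and 5 higher and 1 lower in IFNb against Saline. Differences under median-ratio scaling are therefore given below for receptor genes that were called lower.

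**Figure D1:**
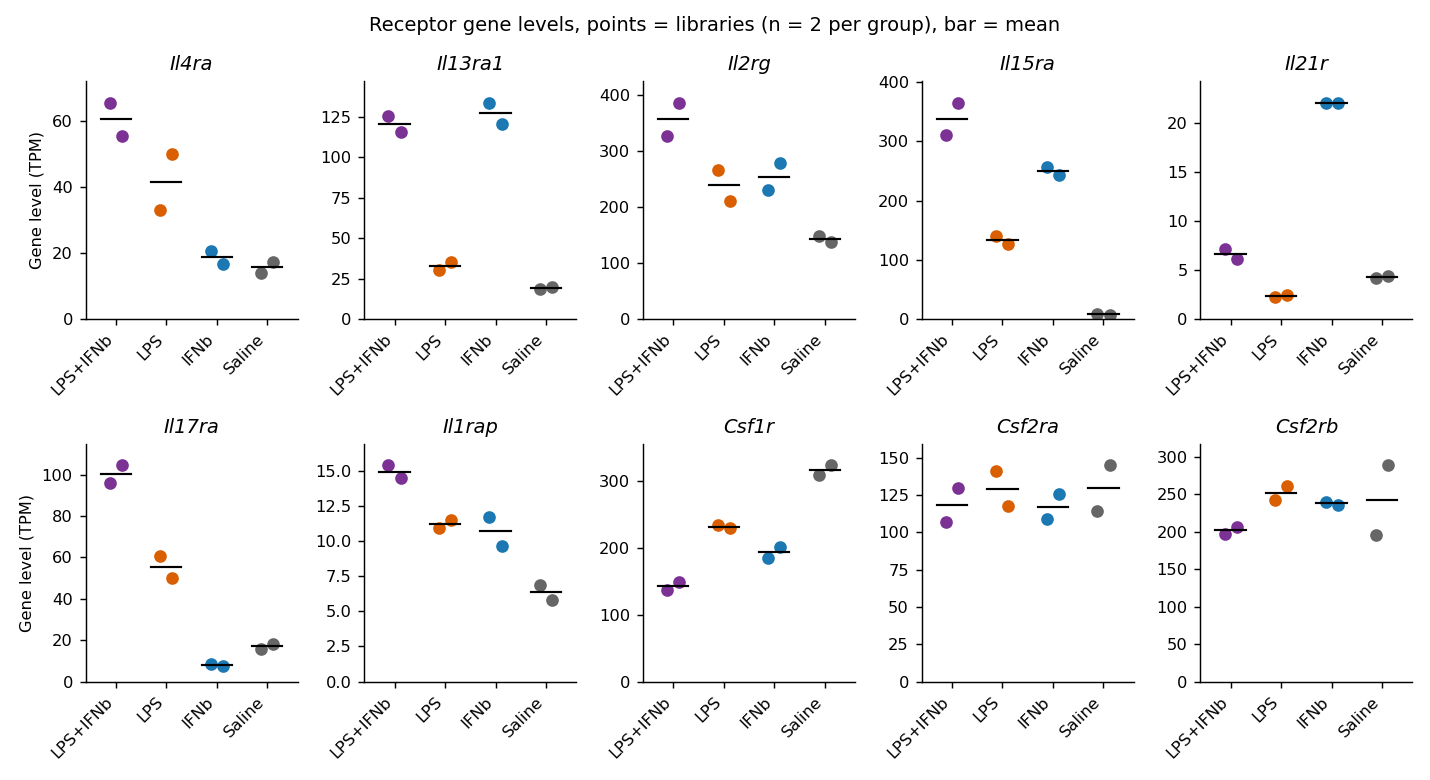
Level of each of the 10 receptor genes in TPM on a linear axis starting at 0, by group from left to right LPS+IFNb, LPS, IFNb and Saline; points are libraries (n = 2 per group) and bars are means. Il15ra averages 339 TPM in LPS+IFNb, 133 TPM in LPS and 249.8 TPM in IFNb, against 7.66 TPM in Saline, Csf1r is lowest in LPS+IFNb, and the groups of Csf2ra overlap.

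**Figure D2:**
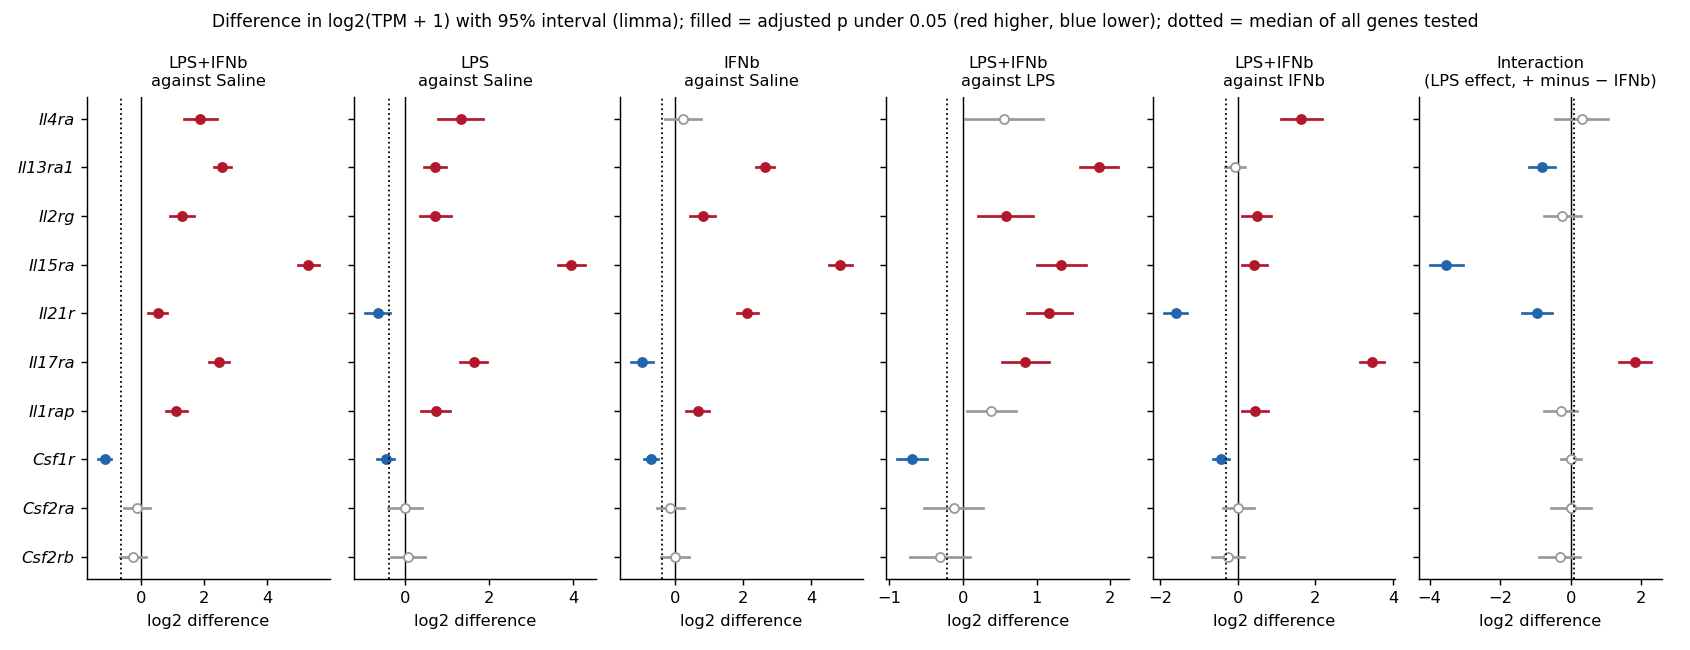
Difference in log2(TPM + 1) of the 10 receptor genes in 5 comparisons and the interaction, with the 95% interval of the limma fit; filled points passed an adjusted p of 0.05, and the dotted line is the median of all 13009 genes tested. Most filled points lie to the right of the dotted line, with Csf1r to the left of 0 in every comparison between groups shown.

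Il4ra encodes the ligand-binding chain for IL-4, shared with the IL-13 receptor. Its level was 65.7 and 55.6 TPM in LPS+IFNb libraries, 33.1 and 50.1 TPM in LPS libraries, 20.8 and 16.7 TPM in IFNb libraries and 14.1 and 17.3 TPM in Saline libraries. Every library that received LPS was above every library that did not, while the IFNb and Saline libraries overlapped. Il4ra rose in LPS+IFNb against Saline by 1.89 ± 0.22 (adjusted p = 3.88e-04) and in LPS against Saline by 1.33 ± 0.22 (adjusted p = 0.0031). In IFNb against Saline the difference was 0.24, with a 95% interval of -0.29 to 0.78 (adjusted p = 0.398). LPS+IFNb against LPS did not pass (0.56, interval 0.02 to 1.09, adjusted p = 0.0985); it passed without LPS replicate 2 (0.85) and under median-ratio scaling (0.81, adjusted p = 0.0254).

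Il13ra1 encodes the chain that joins IL-4 receptor alpha in the receptor shared by IL-4 and IL-13, and it followed the other stimulus. Its level was 125 and 116 TPM in LPS+IFNb libraries, 30.5 and 35.3 TPM in LPS libraries, 134 and 121 TPM in IFNb libraries and 18.8 and 19.9 TPM in Saline libraries. Both groups that received IFNb were far above the others, and they overlapped with each other. The rise was 2.58 ± 0.11 in LPS+IFNb against Saline (adjusted p = 6.32e-06) and 2.65 ± 0.11 in IFNb against Saline (adjusted p = 7.67e-06), corresponding to 6.22 and 6.56 times the Saline mean. In LPS against Saline it rose by 0.73 ± 0.11 (adjusted p = 0.00194), or 1.70 times. LPS+IFNb against IFNb gave a difference of -0.08, with an interval of -0.34 to 0.18 (adjusted p = 0.605). Under median-ratio scaling the value was 0.25 (adjusted p = 0.179) and under upper-quartile scaling 0.13.

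The 2 alpha chains of the IL-4 and IL-13 receptors thus had opposite orders in the single-stimulus groups. Il4ra was higher in LPS than in IFNb by 1.09 ± 0.22 (adjusted p = 0.00933), a call lost without IFNb replicate 2, and Il13ra1 was lower in LPS than in IFNb by 1.92 (-1.92 ± 0.11, adjusted p = 3.71e-05; -1.85 under median-ratio scaling). In LPS against IFNb 38.7% of all genes were called, 16.6% as higher and 22.1% as lower, and 6 of the 10 receptor genes were called, 3 in each direction. The others called lower in LPS than in IFNb were Il15ra (-0.90, adjusted p = 0.00245; -0.83 under median-ratio scaling) and Il21r (-2.77, adjusted p = 1.69e-05; -2.72). The other IL-13-binding chain, the decoy receptor Il13ra2, was listed at 0 in 7 libraries and at 0.0552 TPM in LPS replicate 2. Il4 itself was low and was called lower in each stimulated group than in Saline (adjusted p = 0.00366 in LPS+IFNb, 0.0121 in LPS and 0.00694 in IFNb): it had 2.42 and 1.66 TPM in LPS+IFNb libraries, 1.76 and 3.62 TPM in LPS libraries, 2.49 and 1.74 TPM in IFNb libraries and 7.43 and 6.84 TPM in Saline libraries. The Il4 call in LPS against Saline (-1.19) was lost under median-ratio scaling (-0.80, adjusted p = 0.0643), and Il13 stayed under 1 TPM in every library.

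Il2rg, the common gamma chain gene on chromosome X, was among the most abundant of the receptor genes. It had 327 and 387 TPM in LPS+IFNb libraries, 267 and 212 TPM in LPS libraries, 230.5 and 279 TPM in IFNb libraries and 149 and 137 TPM in Saline libraries. Each stimulated group lay above Saline without overlap, and the LPS and IFNb libraries overlapped. Il2rg rose by 1.31 ± 0.15 in LPS+IFNb, by 0.73 ± 0.15 in LPS and by 0.82 ± 0.15 in IFNb, each against Saline (adjusted p = 3.86e-04, 0.00784 and 0.00538). The further steps to LPS+IFNb, of 0.58 against LPS (adjusted p = 0.0289) and 0.49 against IFNb (adjusted p = 0.0464), were close to the threshold. The call against LPS was lost without LPS replicate 2 or either LPS+IFNb library, and the call against IFNb without any one library of the LPS+IFNb, IFNb or Saline groups. Of the 31-base words of the main Il2rg transcript, 42.7% also occur in Gm20489, an overlapping predicted gene, which was listed at 0 in 6 libraries and at 0.572 TPM in IFNb replicate 1 and 0.382 TPM in LPS+IFNb replicate 1.

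Il15ra, the chain that presents IL-15, had the widest range of the 10 genes. It was listed at 312 and 366 TPM in LPS+IFNb libraries, 140 and 126 TPM in LPS libraries, 257 and 243 TPM in IFNb libraries and 8.61 and 6.71 TPM in Saline libraries. The 4 groups did not overlap, and the order was LPS+IFNb, IFNb, LPS and Saline. The mean was 44.2 times that of Saline in LPS+IFNb (5.30 ± 0.14, adjusted p = 8.08e-07), 17.4 times in LPS (3.96 ± 0.14, adjusted p = 4.08e-06) and 32.6 times in IFNb (4.86 ± 0.14, adjusted p = 1.47e-06). LPS+IFNb was higher than LPS by 1.34 ± 0.14 (adjusted p = 9.65e-04). Against IFNb it was higher by 0.43 (adjusted p = 0.0451), a call lost with a pseudocount of 0.1 and when any library of the LPS, IFNb or LPS+IFNb groups was left out.

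The Il15ra total was spread over 18 annotated transcripts, and much of it was assigned to transcripts that encode no receptor. Protein-coding transcripts took 49.6% and 49.3% of the Il15ra TPM in LPS+IFNb libraries, 34.0% and 36.1% in LPS libraries, 34.6% and 41.2% in IFNb libraries and 25.0% and 12.6% in Saline libraries. The coding share was highest in LPS+IFNb and lowest in Saline, with no overlap of either group with the rest; the Saline shares rest on coding levels of 2.15 and 0.848 TPM. A single transcript with a retained intron, Il15ra-216, held 28.0% to 29.3% in LPS+IFNb libraries, 33.6% to 34.1% in LPS libraries, 29.4% to 34.0% in IFNb libraries and 16.3% to 38.2% in Saline libraries. Pseudoalignment divides reads among such overlapping transcripts by estimation, so these shares are less certain than the gene total. With protein-coding transcripts alone, each of the 46 calls among the receptor genes was kept. Il17ra, Il4ra, Il13ra1, Csf2ra, Csf2rb and Il21r had only 1 transcript with values, a coding one. Csf1r was 100% coding and Il1rap at least 98.6%. The levels of these genes could hardly change, so only the calls of Il15ra and Il2rg were put to a check.

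**Figure D3:**
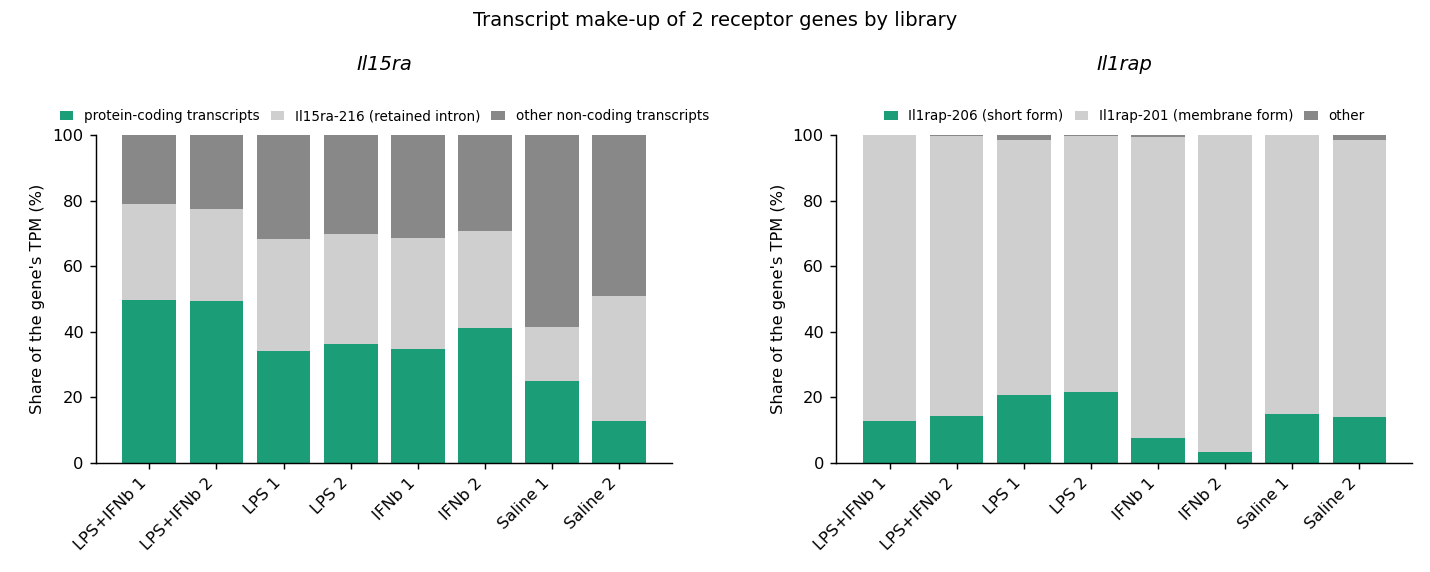
Share of the gene's TPM by transcript class in each library, from left to right LPS+IFNb, LPS, IFNb and Saline, for Il15ra (left) and Il1rap (right). The coding share of Il15ra is 49.6% and 49.3% in LPS+IFNb and 25.0% and 12.6% in Saline libraries; the short Il1rap transcript has its highest share in LPS and its lowest in IFNb libraries.

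The ligand moved with its receptor chain. Il15 had 198 and 181 TPM in LPS+IFNb libraries, 69.7 and 74.2 TPM in LPS libraries, 90.6 and 86.7 TPM in IFNb libraries and 10.1 and 10.6 TPM in Saline libraries, with no overlap between groups. It rose by 2.69 in LPS and by 2.98 in IFNb, each against Saline (adjusted p = 3.31e-06 and 1.8e-06), and LPS+IFNb was above LPS by 1.38 (adjusted p = 1.93e-04). The ratio of Il15ra to Il15 TPM was 1.57 and 2.02 in LPS+IFNb libraries, 2.01 and 1.70 in LPS libraries, 2.84 and 2.80 in IFNb libraries and 0.854 and 0.634 in Saline libraries. That ratio counts every Il15ra transcript, coding or not. The protein-coding ones had 154.8 and 180.4 TPM in LPS+IFNb libraries and 47.8 and 45.5 TPM in LPS libraries. They had 88.9 and 100 TPM in IFNb libraries and 2.15 and 0.848 TPM in Saline libraries. Coding Il15ra was thus listed below Il15 in every library except IFNb replicate 2. The levels were nearly equal in LPS+IFNb replicate 2 (180.4 against 180.9 TPM) and IFNb replicate 1 (88.9 against 90.6 TPM). With coding levels that rest on an estimated split, the order there is uncertain. Il2rb, the beta chain that IL-15 also needs to signal in the cell that receives it, was low, at 2.67 and 3.20 TPM in LPS+IFNb libraries, 1.29 and 1.48 TPM in LPS libraries, 2.23 and 3.28 TPM in IFNb libraries and 1.36 and 1.71 TPM in Saline libraries. It was called higher in LPS+IFNb than in LPS (0.72, adjusted p = 0.0319) and than in Saline (0.63, adjusted p = 0.0259), calls kept in 4 and 5 of the 8 fits that left out 1 library. Il2ra, the IL-2-specific alpha chain, was higher in LPS+IFNb (7.43 and 7.20 TPM) than in LPS libraries (2.93 and 3.50 TPM), by 0.98 (adjusted p = 0.00434), and was at 1.55 and 1.72 TPM in IFNb libraries and 0.619 and 0.807 TPM in Saline libraries.

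Il21r, the chain that binds IL-21, was the least abundant of the 10 genes in every group but IFNb, and its level was highest with IFNb alone. Its level was 7.19 and 6.11 TPM in LPS+IFNb libraries, 2.28 and 2.50 TPM in LPS libraries, 22.1 and 22.0 TPM in IFNb libraries and 4.20 and 4.37 TPM in Saline libraries. The groups did not overlap. The rise in IFNb against Saline was 2.13 ± 0.13 (adjusted p = 4.31e-05), a mean 5.15 times that of Saline, and LPS+IFNb was lower than IFNb by 1.60 (-1.60 ± 0.13, adjusted p = 3.84e-04; -1.31 under median-ratio scaling). LPS+IFNb was still above LPS by 1.17 ± 0.13 (adjusted p = 0.00115) and above Saline by 0.53 ± 0.13 (adjusted p = 0.00872); the call against Saline was lost without LPS+IFNb replicate 1. LPS against Saline was called lower (-0.64, adjusted p = 0.00586), but not under median-ratio scaling (-0.28, adjusted p = 0.157). Il21 was under 1 TPM in every library. Il21r lies on chromosome 7 on the same strand as Il4ra, 23954 bases beyond its end, and the pair had different orders of group levels: Il4ra was highest in LPS+IFNb and Il21r in IFNb libraries.

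Il17ra encodes the receptor chain common to several IL-17 cytokines, which in other settings signals through the adaptor ACT1 (Traf3ip2). Its level was 95.8 and 104.5 TPM in LPS+IFNb libraries, 60.7 and 50.1 TPM in LPS libraries, 8.66 and 7.78 TPM in IFNb libraries and 15.9 and 18.2 TPM in Saline libraries. No groups overlapped, and the libraries with IFNb alone were the lowest while those with IFNb and then LPS were the highest. Il17ra fell in IFNb against Saline by 0.97 (-0.97 ± 0.13, adjusted p = 0.0015; -0.60, adjusted p = 0.0136, under median-ratio scaling). It rose in LPS against Saline by 1.64 ± 0.13 (adjusted p = 1.77e-04) and in LPS+IFNb against Saline by 2.48 ± 0.13 (adjusted p = 1.73e-05), with means 3.24 and 5.86 times that of Saline. LPS+IFNb was above LPS by 0.85 ± 0.13 (adjusted p = 0.00422) and above IFNb by 3.46 ± 0.13 (adjusted p = 1.95e-05), where its mean was 12.2 times that of IFNb. Its usual partner for IL-17A and IL-17F, Il17rc, did not reach the level for testing and was listed at 0 in 6 libraries, at 0.194 TPM in LPS+IFNb replicate 1 and at 0.123 TPM in Saline replicate 2. Il17a was listed at 0 to 0.0608 TPM. Il17f averaged 3.51 TPM in LPS+IFNb, 4.00 TPM in LPS, 4.55 TPM in IFNb and 7.14 TPM in Saline libraries. Its standard deviation in Saline libraries was 4.79 TPM.

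In LPS+IFNb against LPS 34.8% of all genes were called, 10.8% as higher and 24.1% as lower, and 6 of the 10 receptor genes were called, 5 higher (Il13ra1, Il15ra, Il21r, Il17ra and Il2rg) and 1 lower (Csf1r). In LPS+IFNb against IFNb 39.3% of all genes were called, 8.76% as higher and 30.5% as lower, and 7 receptor genes were called, 5 higher (Il17ra, Il4ra, Il2rg, Il1rap and Il15ra) and 2 lower (Il21r and Csf1r). The median difference of the 10 genes was 0.57 and 0.22 in these comparisons, beside -0.22 and -0.30 over all genes tested. Median-ratio scaling raised the median of all genes by 0.20 and 0.27; it gave 1869 higher and 1288 lower calls over all genes in LPS+IFNb against LPS, in place of 1400 and 3129, and 1657 higher and 1365 lower in LPS+IFNb against IFNb, in place of 1140 and 3967. Among the receptor genes it gave 7 higher and 1 lower against LPS and 5 higher and 1 lower against IFNb.

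The interaction asks whether the difference made by LPS (on the log2 scale) is itself different in libraries that had IFNb: LPS+IFNb minus IFNb, less LPS minus Saline. LPS+IFNb libraries were taken later after IFNb than IFNb libraries. The LPS difference with IFNb therefore includes that later time, which cannot be told apart from LPS. The interaction was called for 7.96% of all genes (3.51% above 0, 4.45% below 0). Among the 10 receptor genes it was called for 4, 1 above 0 and 3 below. Median-ratio scaling moved the median of all genes by -0.12 and gave 222 calls above 0 and 593 below, in place of 457 and 579. For Il17ra it was 1.82 ± 0.19 (adjusted p = 0.00216), with an LPS difference of 3.46 with IFNb and 1.64 without. For Il15ra it was -3.53 ± 0.19 (adjusted p = 1.26e-04), with an LPS difference of 0.43 with IFNb and 3.96 without. These 2 calls were kept with each library left out and under each scaling. For Il13ra1 it was -0.81 ± 0.15 (adjusted p = 0.0278; LPS difference -0.08 with IFNb and 0.73 without), and for Il21r -0.95 ± 0.18 (adjusted p = 0.0268; -1.60 with IFNb and -0.64 without). Both of these calls were lost with 7 of the 8 libraries left out in turn, with adjusted p up to 0.111. For Il4ra, Il2rg, Il1rap, Csf1r, Csf2ra and Csf2rb the interaction was not called; its interval was narrowest for Csf1r, at -0.27 to 0.30, and reached from -0.44 to 1.07 for Il4ra.

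**Figure D4:**
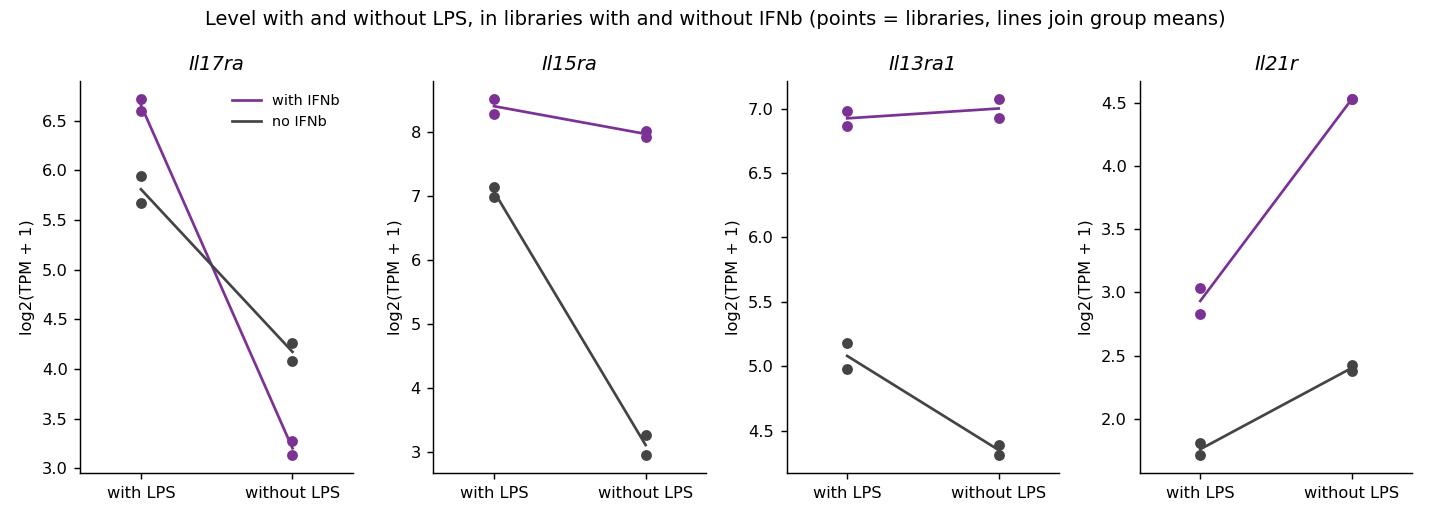
Level in log2(TPM + 1) with LPS (left of each panel) and without LPS (right), for libraries with IFNb (purple) and without IFNb (grey), of the 4 receptor genes whose interaction was called; points are libraries and lines join group means. The lines cross for Il17ra and are far from parallel for Il15ra (LPS difference 0.43 with IFNb, 3.96 without). The line with IFNb also spans a later time after IFNb, which cannot be told apart from LPS.

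Il1rap encodes the accessory protein that the receptors for IL-1, IL-33 and IL-36 share. Its level was 15.4 and 14.4 TPM in LPS+IFNb libraries, 10.9 and 11.5 TPM in LPS libraries, 11.7 and 9.64 TPM in IFNb libraries and 6.90 and 5.79 TPM in Saline libraries. LPS+IFNb lay above and Saline below both single-stimulus groups, which overlapped. The rise against Saline was 1.12 ± 0.14 in LPS+IFNb (adjusted p = 4.84e-04), 0.73 ± 0.14 in LPS (adjusted p = 0.00506) and 0.67 ± 0.14 in IFNb (adjusted p = 0.0079, lost without IFNb replicate 1). LPS+IFNb against LPS was not called (0.38, interval 0.05 to 0.72, adjusted p = 0.0753; 0.63, adjusted p = 0.0315, under median-ratio scaling), and the call against IFNb (0.45, adjusted p = 0.0428) was kept only when a Saline library was the one left out.

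The deposited values separate 2 coding forms of Il1rap, shown because mouse cells are known to make a membrane form and a shorter secreted form of this protein. GENCODE M21 transcripts Il1rap-201 and Il1rap-206 share their first 1051 coding bases and then part. Il1rap-201 continues over the exons that follow, with 659 more coding bases. Il1rap-206 reads into the intron that follows coding exon 7 and ends after 29 coding bases. The excerpts run from coding base 1022, with the bases after the parting in capitals.
Il1rap-201, chr16:26701207-26710510 with an intron between, plus strand, GRCm38: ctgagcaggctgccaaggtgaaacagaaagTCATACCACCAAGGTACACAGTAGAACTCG
Il1rap-206, chr16:26701207-26701265, plus strand, GRCm38: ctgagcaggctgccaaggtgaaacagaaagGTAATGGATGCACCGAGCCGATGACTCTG
The short transcript took 12.6% and 14.1% of the Il1rap TPM in LPS+IFNb libraries, 20.7% and 21.4% in LPS libraries, 7.53% and 3.26% in IFNb libraries and 15.0% and 13.9% in Saline libraries. Its share was highest in LPS and lowest in IFNb libraries, neither overlapping another group. In TPM it had 1.94 to 2.04 in LPS+IFNb, 2.26 to 2.46 in LPS, 0.314 to 0.883 in IFNb and 0.802 to 1.03 in Saline libraries, and the long transcript 12.4 to 13.4 in LPS+IFNb, 8.50 to 8.97 in LPS, 9.32 to 10.8 in IFNb and 4.91 to 5.87 in Saline libraries. No test was run on transcripts, and unspliced RNA would also hold the intron bases.

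Genes for ligands of the IL-1 receptor, which uses this chain, moved more widely. Il1b had 2093 and 2152 TPM in LPS+IFNb libraries, 6242 and 5628 TPM in LPS libraries, 2.76 and 5.70 TPM in IFNb libraries and 5.28 and 7.06 TPM in Saline libraries. Il1rn, the receptor antagonist, had 5377 and 5100 TPM in LPS+IFNb libraries, 1580 and 1737 TPM in LPS libraries, 966 and 767 TPM in IFNb libraries and 149 and 178 TPM in Saline libraries. LPS+IFNb against LPS was thus lower for Il1b (-1.48, adjusted p = 0.00678) and higher for Il1rn (1.66, adjusted p = 4.63e-04). The signalling receptor Il1r1 was at 1.87 and 1.65 TPM in LPS+IFNb libraries, 3.07 and 3.47 TPM in LPS libraries, 2.27 and 1.97 TPM in IFNb libraries and 3.27 and 3.77 TPM in Saline libraries.

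Csf1r encodes the receptor for CSF-1 and IL-34 and was the most abundant of the 10 genes in Saline libraries. It had 137 and 149.8 TPM in LPS+IFNb libraries, 235 and 229 TPM in LPS libraries, 185 and 202 TPM in IFNb libraries and 309.7 and 324 TPM in Saline libraries. The groups did not overlap, and the order was Saline, LPS, IFNb and LPS+IFNb. Csf1r fell in LPS+IFNb against Saline by 1.14 (-1.14 ± 0.08, adjusted p = 6.08e-05), where its mean was 0.453 times that of Saline, and this call was kept under median-ratio scaling at -0.42 (adjusted p = 0.018). In IFNb against Saline it was called lower (-0.71 ± 0.08, adjusted p = 8.71e-04), but not under median-ratio scaling (-0.32, adjusted p = 0.0735). In LPS against Saline it was called lower (-0.45 ± 0.08, adjusted p = 0.00468), while under median-ratio scaling the difference was 0.01. LPS+IFNb was lower than LPS by 0.69 (-0.69 ± 0.08, adjusted p = 0.00171; -0.43 under median-ratio scaling, still called). LPS+IFNb was called lower than IFNb (-0.43, adjusted p = 0.00909), but not under median-ratio scaling (-0.10), upper-quartile scaling (-0.23) or without IFNb replicate 2 or LPS+IFNb replicate 1. LPS was called higher than IFNb (0.26, adjusted p = 0.0476), a call lost whichever library was left out.

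The ligand gene Csf1 rose in each stimulated group, while the fall of Csf1r against Saline was kept under median-ratio scaling in LPS+IFNb alone. Csf1 had 112 and 106 TPM in LPS+IFNb libraries, 60.2 and 73.8 TPM in LPS libraries, 102 and 86.0 TPM in IFNb libraries and 6.10 and 12.8 TPM in Saline libraries. It rose by 3.47 in LPS+IFNb, by 2.77 in LPS and by 3.26 in IFNb, each against Saline (adjusted p = 1.05e-04, 5.11e-04 and 2.88e-04), and these calls were kept with each library left out. Il34, the other ligand, was at 0.0557 to 0.732 TPM over the 8 libraries. The ratio of Csf1r to Csf1 TPM was 1.22 and 1.41 in LPS+IFNb libraries, 3.90 and 3.11 in LPS libraries, 1.82 and 2.35 in IFNb libraries and 50.8 and 25.3 in Saline libraries. A ratio within a library does not depend on the scaling of that library.

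**Figure D5:**
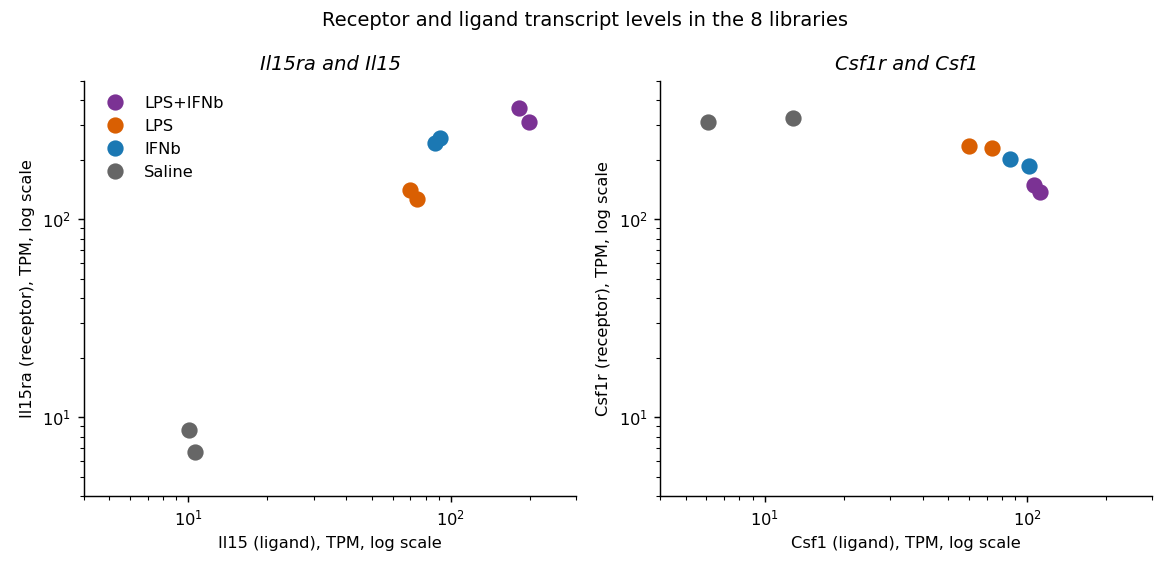
Receptor level against ligand level in TPM, both axes logarithmic, for Il15ra and Il15 (left) and Csf1r and Csf1 (right); points are the 8 libraries, coloured by group. Il15ra and Il15 are both highest in LPS+IFNb and lowest in Saline, whereas Csf1r is lowest and Csf1 highest in LPS+IFNb.

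Csf2ra and Csf2rb encode the alpha chain and the common beta chain of the GM-CSF receptor, the beta chain also serving IL-3 and IL-5. Csf2ra had 107 and 130 TPM in LPS+IFNb libraries, 141 and 117 TPM in LPS libraries, 109 and 126 TPM in IFNb libraries and 114 and 145 TPM in Saline libraries. Csf2rb had 197 and 207 TPM in LPS+IFNb libraries, 242 and 261 TPM in LPS libraries, 240.4 and 236 TPM in IFNb libraries and 195.5 and 289 TPM in Saline libraries. Neither gene was called in any comparison. All 4 groups of Csf2ra overlapped, and the Saline libraries of Csf2rb spanned all the others. For Csf2ra the 95% interval of LPS+IFNb against Saline ran from -0.52 to 0.28 and that of LPS against Saline from -0.40 to 0.40; for Csf2rb they ran from -0.64 to 0.18 and from -0.33 to 0.49. Under median-ratio scaling LPS+IFNb against Saline was called higher for both, at 0.59 (adjusted p = 0.0168) for Csf2ra and 0.49 (adjusted p = 0.0176) for Csf2rb. The Csf2rb values rested on which Saline library was kept: without Saline replicate 1, Csf2rb was called lower in LPS+IFNb (-0.51) and IFNb (-0.28) against Saline, and without Saline replicate 2 it was called higher in LPS (0.36) and IFNb (0.28) against Saline. Without either Saline library Csf2rb was also called lower in LPS+IFNb than in LPS (-0.31) and IFNb (-0.24), and without Saline replicate 2 its interaction was called (-0.60).

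Csf2rb has a near-identical neighbour on chromosome 15, Csf2rb2, which in mice encodes an IL-3-specific beta chain. Their coding sequences matched at 2503 of 2628 aligned bases (95.2%), and 30.1% of the 31-base words of Csf2rb also occur in other genes, nearly all in Csf2rb2. The first 60 coding bases show how reads can be shared, with the single differing base in capitals.
Csf2rb, chr15:78335207-78335266, plus strand, GRCm38: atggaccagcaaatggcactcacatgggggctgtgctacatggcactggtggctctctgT
Csf2rb2, chr15:78298170-78298229, minus strand, GRCm38: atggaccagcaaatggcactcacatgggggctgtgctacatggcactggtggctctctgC
Csf2rb2 was listed at 163 and 177 TPM in LPS+IFNb libraries, 175 and 195 TPM in LPS libraries, 199.6 and 188 TPM in IFNb libraries and 160.4 and 253 TPM in Saline libraries. The split between these genes is an estimate. Their sum was not called in any comparison either. The ligand gene Csf2, in contrast, had 18.7 and 15.0 TPM in LPS+IFNb libraries and 26.2 and 26.4 TPM in LPS libraries, was at 0 and 0.087 TPM in IFNb libraries and was listed at 0 in both Saline libraries.

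Beyond these genes, 33 of 50 other cytokine receptor chains were tested. In LPS against Saline 5 were called higher and 6 lower (6 and 2 under median-ratio scaling), in IFNb against Saline 5 higher and 10 lower (9 and 3), and in LPS+IFNb against LPS 5 higher and 7 lower (9 and 3). These were 33.3%, 45.5% and 36.4% of the chains tested, beside 54.1%, 51.6% and 34.8% of all genes, and the median difference was -0.09, -0.10 and -0.08, beside -0.38, -0.37 and -0.22 over all genes. The interferon receptor chains Ifnar1 and Ifnar2 rose with LPS, to means of 201.3 and 295 TPM in LPS libraries against 81.5 and 149 TPM in Saline libraries (1.30 and 0.99; adjusted p = 1.1e-04 and 3.74e-04). Ifngr1, which binds interferon gamma, was lower in IFNb (25.7 TPM) than in Saline libraries (128 TPM), by 2.28 (-2.28, adjusted p = 7.16e-05). Il10ra, the IL-10-binding chain, was at 137 TPM in IFNb libraries and 44.4 TPM in Saline libraries (1.61, adjusted p = 3.07e-05). Il6ra, the IL-6-binding chain, fell to 4.11 TPM in LPS libraries, against 26.9 TPM in Saline libraries (-2.42, adjusted p = 1.81e-04), and Il12rb1 was at 16.8 TPM in IFNb libraries and 0.125 TPM in Saline libraries (3.96, adjusted p = 9.49e-05).

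Of 23 ligands of these receptors, 11 were tested: 8 were called higher and 1 lower in LPS against Saline (8 and 0 under median-ratio scaling; 81.8% of those tested, beside 54.1% of all genes), 4 higher and 2 lower in IFNb against Saline (4 and 2), 2 higher and 3 lower in LPS+IFNb against LPS (3 and 2), and 6 higher and 1 lower in LPS+IFNb against IFNb (6 and 0). The other comparisons called 54.5%, 45.5% and 63.6% of the ligands tested, in that order, beside 51.6%, 34.8% and 39.3% of all genes. The share in IFNb against Saline was thus near that of all genes. The median difference of the 11 was 2.69 in LPS against Saline, where that of all genes was -0.38.

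All 28 genes that act downstream of these receptors were tested. In LPS against Saline 14 were called higher and 7 lower (18 and 2 under median-ratio scaling) and in IFNb against Saline 12 higher and 6 lower (14 and 1), which is 75% and 64.3%, beside 54.1% and 51.6% of all genes. Stat5a, a transcription factor used by the gamma chain and GM-CSF receptors, rose to 164 TPM in LPS libraries, against 12.6 TPM in Saline libraries (3.61, adjusted p = 3.11e-06), but was at 5.81 TPM in IFNb libraries. Cish, a STAT5 target that restrains the same receptors, had 123 TPM in LPS and 0.554 TPM in Saline libraries (6.32, adjusted p = 3.22e-06). Socs1, another feedback inhibitor, rose in both single-stimulus groups, to 44.6 TPM in LPS and 126.5 TPM in IFNb libraries, against 0.640 TPM in Saline libraries. Stat6, used by the IL-4 receptor, was at 80.1 TPM in IFNb and 117 TPM in Saline libraries (-0.53, adjusted p = 0.00629), a call lost under median-ratio scaling (-0.14).

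Of 16 genes known to respond to IL-4 or IL-13 in mouse macrophages, 15 were tested, with 4 called higher and 5 lower in LPS against Saline (4 and 1 under median-ratio scaling), 5 higher and 5 lower in IFNb against Saline (5 and 2), and 5 higher and 3 lower in LPS+IFNb against LPS (5 and 2). The share called was 60%, 66.7% and 53.3%, beside 54.1%, 51.6% and 34.8% of all genes, and in LPS against Saline the median of the list (-0.41) was near that of all genes (-0.38). Mrc1, the mannose receptor, was at 79.5 TPM in IFNb and 44.6 TPM in Saline libraries (0.82, adjusted p = 0.00132). Pparg, a transcription factor of lipid handling, was at 15.5 TPM in LPS, 22.4 TPM in IFNb and 72.2 TPM in Saline libraries (-2.15 and -1.64; adjusted p = 1.86e-04 and 5.88e-04), and Ccl22, a chemokine, at 66.2 TPM in LPS and 3.59 TPM in Saline libraries (3.88, adjusted p = 7.69e-05). Of 6 sheddases and their regulators, which release receptor ectodomains, 2 were called higher and 1 lower in LPS against Saline (4 and 0 under median-ratio scaling). The counts were the same in IFNb against Saline (2 and 0 under that scaling). This was 50% of the list in each, near the 54.1% and 51.6% of all genes. Rhbdf2, a partner of ADAM17, was at 107 TPM in LPS and 17.7 TPM in Saline libraries (2.59, adjusted p = 3.71e-04).

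The genes whose pattern over the 8 libraries was closest to a receptor gene were found by the root mean square difference of centred log2(TPM + 1) values among 11127 genes. Il15ra was nearest to Ifi214, Oas1g and Irgm1 (0.252, 0.259 and 0.260), and Ifi214 had 57.7 TPM in LPS+IFNb, 23.2 TPM in LPS, 46.4 TPM in IFNb and 1.15 TPM in Saline libraries. Il17ra was nearest to Nfkbid (0.199), Tnfrsf8 (0.216) and Ier2 (0.279); Nfkbid had 51.5 TPM in LPS+IFNb, 38.2 TPM in LPS, 5.41 TPM in IFNb and 9.34 TPM in Saline libraries. Il13ra1 was nearest to Casp12 (0.150), Parp3 (0.163) and Tapbpl (0.166), and Il21r to Sertad3 (0.146), Ankle2 (0.177) and Nmral1 (0.198). Il4ra was nearest to Tnfaip6 (0.119), Klf2 (0.153) and Olfr432 (0.154), of which Tnfaip6 and Olfr432 averaged only 1.504 and 0.879 TPM. Il2rg, Il1rap and Csf1r, with smaller ranges, were nearest to Dnaja2 (0.0666), Map2k4 (0.0953) and Ndufs8 (0.0452). The group means of Csf2ra and Csf2rb spanned less than 1 on the log2 scale, and no genes are named for them.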

How the data were processed

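RNA sequencing of macrophages gave 8 libraries in 4 groups of 2, grouped by their titles. TPM values for 88198 transcripts were deposited by the authors; per the submitters' processing notes they came from kallisto, a pseudoaligner, with mm10 named as genome build. Its version, transcript set and strand setting: not given in the sources used here. TPM keeps no read number, so depth and counting error are unknown.

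Transcripts were matched to GENCODE M21 (86119 matched; the other 2079 held 1.01% to 1.95% of TPM) and summed by gene. limma 3.58.1 in R 4.3.3 (limma-trend, 1 mean per group, 4 residual and 2.54 prior degrees of freedom) was fitted to log2(TPM + 1), which understates changes of low genes, with two-sided p-values and Benjamini-Hochberg adjustment over 13009 genes. The fit was tested on simulated data in which few genes changed, all of them upward. Many genes changed in the real libraries, so the simulation cannot vouch for the calls or the scaling. The receptor genes, lists and tests were chosen with earlier results of these data known. All 10 receptor genes are named whatever their p. Of a list, the genes eligible to be named were up to 4 per direction by adjusted p in 4 comparisons, and ligands or shared chains whatever their p; of these only some are given.

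Alternatives were 3 rescalings, a pseudocount of 0.1, no minimum and a minimum of 5 TPM, fits to the 2 groups compared, a replicate block (also with numbers crossed, added after seeing the data), each library left out, stricter thresholds, protein-coding transcripts only, and Csf2rb with Csf2rb2. Promoter sequences are from RefSeq on GRCm38.p6.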

Additional observations from a re-analysis of the deposited data

Results flagged for a closer look

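For 4 receptor genes the difference made by LPS differed between libraries with and without IFNb, by the interaction term of the limma fit over all genes, where 7.96% of genes were called. For Il17ra the LPS difference was larger with IFNb by 1.82 on the log2 scale (adjusted p = 0.00216), and for Il15ra the interaction was -3.53 (adjusted p = 1.26e-04); both passed in each of the 8 fits that left out 1 library. For Il13ra1 it was -0.81 (adjusted p = 0.0278) and for Il21r -0.95 (adjusted p = 0.0268), and these passed in 1 of the 8 such fits each. LPS+IFNb libraries were taken later after IFNb than IFNb libraries, and the part of that timing in the 4 interactions cannot be told apart from LPS. Groups of 2 libraries are too small for a search for single outlying libraries.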

How the results depend on the processing

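Of the 46 calls among the receptor genes, 32 kept their direction and call under all 18 alternatives other than the stricter thresholds, and 14 lost the call under at least 1. Counts over all genes under median-ratio scaling were 4151 in IFNb against Saline and 3022 in LPS+IFNb against IFNb. Without a minimum TPM 4 receptor genes were called in LPS+IFNb against IFNb. At an adjusted p under 0.01 the counts over all genes were 4639 (LPS against Saline), 4263 (IFNb against Saline), 2328 (LPS+IFNb against LPS), 2413 (LPS+IFNb against IFNb), 3144 (LPS against IFNb) and 401 (interaction), with 4 receptor genes in LPS+IFNb against IFNb and 2 in the interaction. With a minimum log2 change of 1 they were 3028 (LPS against Saline), 2577 (IFNb against Saline), 5270 (LPS+IFNb against Saline), 1322 (LPS+IFNb against LPS), 1511 (LPS+IFNb against IFNb) and 2361 (LPS against IFNb), and 3 receptor genes were called in each of LPS against Saline, IFNb against Saline, LPS+IFNb against LPS and LPS+IFNb against IFNb, 4 in LPS against IFNb and 2 in the interaction. With 1 library left out, the receptor count ran from 3 to 7 in LPS+IFNb against IFNb and from 2 to 4 in the interaction, and the all-gene count from 2723 to 4975 in LPS+IFNb against LPS, from 2491 to 5542 in LPS+IFNb against IFNb and from 469 to 949 in the interaction; the group with 1 library left is then assumed to vary like the others.

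Some differences that were not called, and Csf1r in LPS against Saline (0.0143), changed sign under median-ratio scaling: Csf2ra in IFNb against Saline (0.26), LPS+IFNb against Saline (0.59), LPS+IFNb against LPS (0.13) and the interaction (-0.12), Csf2rb in LPS+IFNb against Saline (0.49) and against IFNb (0.0905), Il13ra1 in LPS+IFNb against IFNb (0.25) and Csf1r in the interaction (-0.12). Under upper-quartile scaling Csf2ra did so in LPS+IFNb against Saline (0.20) and against LPS (0.00827), Csf2rb in LPS+IFNb against Saline (0.0908) and Il13ra1 in LPS+IFNb against IFNb (0.13). With protein-coding genes rescaled Csf2ra was at -0.0505 in LPS against Saline and Csf2rb at -0.0539 in IFNb against Saline, and the sum of Csf2rb and Csf2rb2 gave -0.00962 in LPS against Saline and -0.0234 in IFNb against Saline. With 1 library left out Csf2ra ran from -0.17 to 0.18 in LPS against Saline, from -0.31 to 0.038 in IFNb against Saline, from -0.29 to 0.0496 in LPS+IFNb against Saline, from -0.26 to 0.012 in LPS+IFNb against LPS, from -0.13 to 0.15 in LPS+IFNb against IFNb and from -0.16 to 0.18 in the interaction. Csf2rb ran from -0.20 to 0.36 in LPS against Saline, from -0.28 to 0.28 in IFNb against Saline and from -0.51 to 0.047 in LPS+IFNb against Saline. Csf1r ran from -0.0488 to 0.0802 in the interaction, and in LPS against IFNb Il2rg ran from -0.26 to 0.0746 and Il1rap from -0.0636 to 0.20. The cause of these changes was not tested.

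Replicate numbers as given did not pair the libraries: the correlation of replicate differences between groups was 0.141 for Saline with LPS, 0.126 for IFNb with LPS+IFNb and 0.00527 for Saline with LPS+IFNb, and -0.156 to -0.109 for the other 3 pairs of groups. With the replicate number as a block 41 of the 46 calls were kept, and 2 receptor genes were called in the interaction. With the numbers of the IFNb and LPS+IFNb groups exchanged in that block, chosen after seeing these signs, 45 of the 46 calls were kept, and all-gene counts against Saline were 9262 (LPS+IFNb), 7380 (LPS) and 7069 (IFNb), with 1141 for the interaction; whether libraries share a preparation across groups is not given in the labels. Depth is unknown, so low values such as Il21r in LPS libraries cannot be given a counting error.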
